A study of Equus caballus with 6 samples.

Results

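The protein components of the cytosolic ribosome were followed through 6 single-colour human arrays hybridised with RNA from horse testis. The set was a list of 53 gene symbols, 32 of the large and 21 of the small ribosomal subunit. A gene was taken as measured by a probe when the gene table of the array gave that probe exactly 1 symbol and the symbol was on the list. This rule found 41 of the 53 genes, 25 large and 16 small, on 59 probes, among 18278 genes with such a probe on the whole array. The samples were minced testicular parenchyma of 6 adult stallions, 1 array per stallion. All had 10 days of acclimation, after which 3 were given dexamethasone intravenously at 0.1 mg/kg and 3 an equal volume of saline (control), and testes were taken 12 h later. Dexamethasone is a synthetic glucocorticoid that activates the glucocorticoid receptor. The stallions are called dexamethasone 1 to 3 and control 1 to 3 below, and these numbers are names that pair no animals.

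The ribosome is built from ribosomal RNA and many small basic proteins. The small subunit holds the mRNA and reads its codons, while the large subunit forms the peptide bond and carries a flexible stalk, made of RPLP0, RPLP1 and RPLP2, that recruits translation factors. The mRNAs of these proteins begin with a run of pyrimidines through which their translation is controlled together with cell growth. In the testis, dividing spermatogonia and growing spermatocytes make ribosomes, while late spermatids lose most of their cytoplasm and its ribosomes.

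Each array had 54990 spots, 53423 of them gene probes, and 22690 to 25537 gene probes (42.5% to 47.8%) were above background. Of 30 fixed markers of testis cells 28 had a probe, and 22 of these were above background on 3 or more arrays. DDX4, PGK2, TNP1, PRM2, CRISP2 and SOX9 were at background on all 6 arrays. The list included markers of Leydig, Sertoli and germ cells, and in such bulk tissue fewer cells of a type and less RNA per cell cannot be told apart. Horse transcripts were read here by probes designed for human ones, so a probe's brightness depends on the probe as well as on the transcript. Brightness is therefore given per probe and is not used to rank genes, and a dim probe does not show low expression. The p-values and standard errors rest on the spread between these stallions, drawn by limma towards a value common to all tested probes. For a probe with a very narrow spread they are therefore set largely by the other probes. The number of arrays limits the precision.

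Of the 59 probes, 38 met the condition for a test: signal above background on at least 3 arrays, and 2 or more usable spots in each group. They covered 30 genes, 20 of the large and 10 of the small subunit. By probe, 27 were above background on all 6 arrays and 17 on 0. The share above background on at least 3 arrays was 64.4% for the ribosomal protein probes and 51.7% for all 23472 probes with 1 symbol. It was 73.5% for the 34 large subunit probes and 52% for the 25 small subunit probes. Probes annotated with a curated RefSeq mRNA did better than the rest, with 27 of 39 (69.2%) against 11 of 20 (55%), as they did among all probes with 1 symbol (54.7% against 47.2%).

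The 11 genes with a probe but no test were RPL4, RPL13, RPL13A, RPL27 and RPL35 in the large subunit and RPS7, RPS9, RPS12, RPS15, RPS25 and RPS28 in the small. RPL13A, known also as a silencer of inflammatory mRNAs once released from the ribosome, had 2 probes, and both were at background in every stallion. The RPL35 probe was the only probe of the 59 with no value on any array. RPL4 was above background on 1 array: its signal, as a normalised log2 intensity, was 7.00 in dexamethasone 1 and no higher than 6.195 in the other 5 stallions. Its other probe was at background in all 6. A further 6 genes (RPL5, RPL12, RPL24, RPL31, RPS18 and RPS20) appeared only on probes that the gene table gives to several genes, and 6 (RPL15, RPL23, RPLP0, RPS6, RPS21 and RPS27A) had no listed probe. There were 25 such shared probes, and the 9 that could be tested differed by -0.27 to 0.05 on the log2 scale, with 0 past an unadjusted limma p of 0.05.

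No ribosomal protein gene differed detectably between dexamethasone and control stallions. At the brightest tested probe of each gene, the log2 difference (dexamethasone minus control) lay within 0.2 of 0 for 29 of 30 genes and within 0.1 for 20 of 30. RPS3 was the exception, at -0.53, with a spread between stallions larger than the difference. In limma's test 0 of 38 probes passed the Benjamini-Hochberg adjusted p of 0.05, with 0.00407% of all 24590 tested probes past it. At an unadjusted p of 0.05 again 0 of 38 passed, with 3.29% of all tested probes past it. The smallest unadjusted p was 0.0527, for RPS10, and limma's adjusted p was 0.999 for it. For 1 gene in 3 treated and 3 control animals, the smallest two-sided p of an exact permutation test is 0.1.

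The median difference of the 30 genes was -0.02, beside -0.01 for all 10604 tested genes. By gene 13 were higher and 17 lower (56.7% lower), beside 52.7% lower of all tested genes. When arrays were scaled by their medians only, 25 of 30 were lower (83.3%), as were 77.0% of all genes. With that scaling the median of all genes moved to -0.09 and that of the ribosomal protein genes to -0.10, so the distance between them stayed at -0.01. The standard errors of the 38 probe differences ran from 0.08 to 0.67 with a median of 0.11. The 95% intervals were 0.34 to 2.98 wide, and every one included 0.

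**Figure D1:**
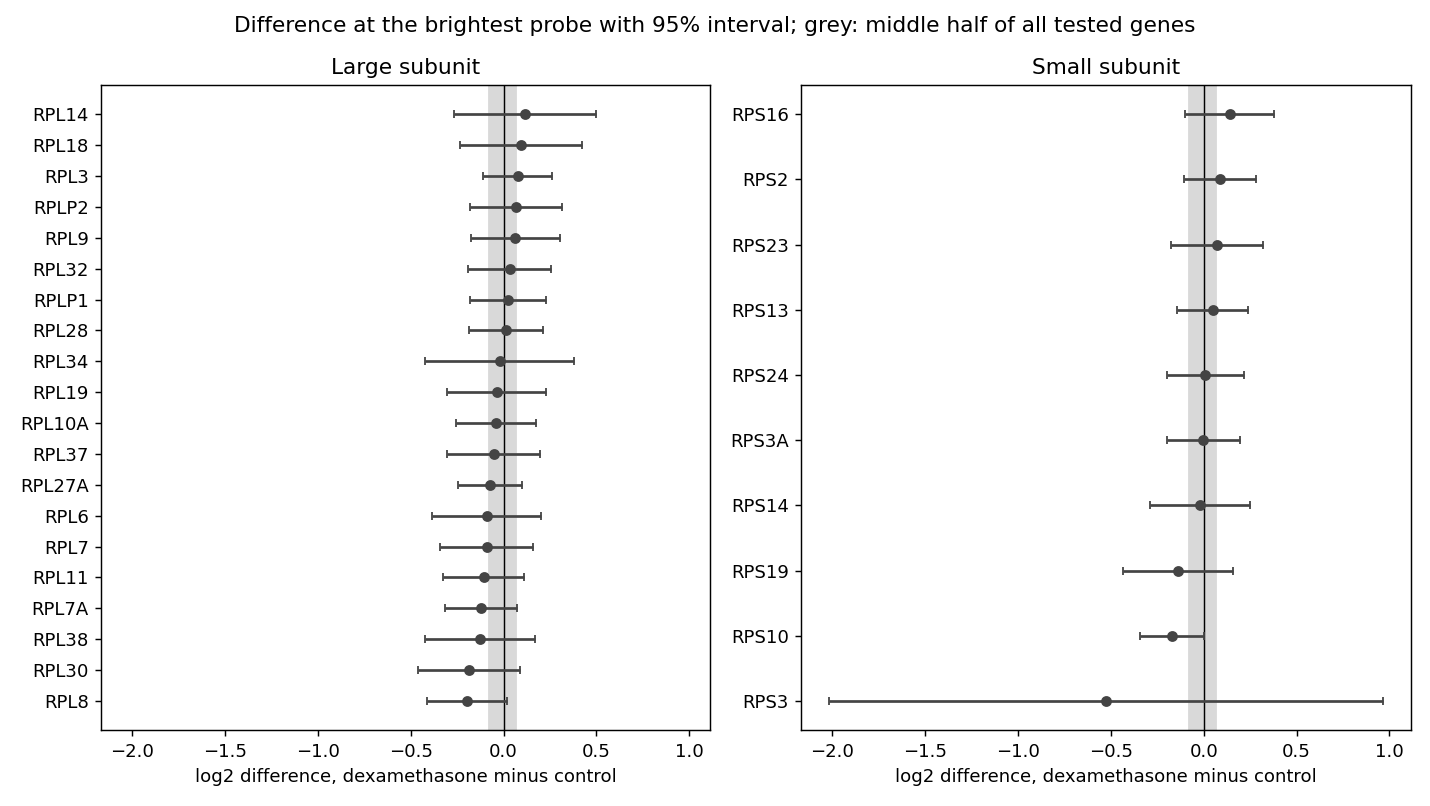
Log2 difference between the mean of the dexamethasone and of the control stallions (horizontal axis) for each of the 30 tested ribosomal protein genes at its brightest probe, with limma's 95% interval. The grey band is the middle part of all tested genes, from their lower to their upper quartile; every interval includes 0, and that of RPS3, from -2.02 to 0.96, is the widest.

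The stalk proteins RPLP1 and RPLP2 each had 1 probe. RPLP1 was the only ribosomal protein with spots marked as saturated, in dexamethasone 2, control 1 and control 3. The marked spots had the highest spot means, 32175, 29676 and 30391, and the unmarked ones 27899 to 29274, close below them. The normalised log2 intensity of RPLP1 was 14.75, 14.93 and 14.82 in the dexamethasone stallions and 14.75, 14.75 and 14.93 in the controls. The groups overlapped, with a difference of 0.02 ± 0.09 (SE) (n = 3 each). It was 0.19 with cyclic loess (limma unadjusted p = 0.110), 0.18 with spots of the flags C, I or P retained and 0.12 in the authors' values. Within the runs of slides it was 0.09 and -0.11, and a saturated spot gives only a lower bound of its signal. With these spots taken as missing, RPLP1 had too few values for a test.

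RPLP2 measured 8.45, 8.81 and 8.71 in the dexamethasone stallions and 8.48, 8.60 and 8.68 in the controls. The lowest value of each group was that of stallion 1, the groups overlapped, and the difference was 0.07 ± 0.11 (SE, n = 3 each).

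In the body of the large subunit, 8 of the 20 tested genes (stalk included) were higher in dexamethasone stallions and 12 lower, with a median of -0.04. The genes nearest to a difference were RPL8 and RPL30. RPL8, which lies next to the peptidyl transferase centre, was at 6.48, 6.44 and 6.72 with dexamethasone and 6.71, 6.75 and 6.77 without. Dexamethasone 3 reached the lowest control, so the groups overlapped, and limma gave -0.20 ± 0.10 (SE) with an unadjusted p of 0.0671. This is a dim probe, with spot means of 78.1 to 113, and its difference depends on the treatment of background. It was -0.44 with background subtraction and -0.45 in the authors' scaled intensities, both past an unadjusted p of 0.05 and not past the adjusted one. Without dexamethasone 3, the stallion that reached the controls, it was -0.28 (limma unadjusted p = 0.0126, adjusted p = 0.989). Without 1 of the other stallions it was as near to 0 as -0.15. Within the second run of slides, 1 stallion against 1, it was -0.05.

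RPL30 had 7.10 and 7.11 in dexamethasone 1 and 3, no usable spot in dexamethasone 2, and 7.10, 7.47 and 7.30 in the controls. Control 1 lay between the dexamethasone stallions, and the difference was -0.18 ± 0.12 (SE; n = 2 and 3). Without control 1 it was -0.27 (limma unadjusted p = 0.0435), and -0.09 without control 2.

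RPL27A and RPS10 were the only members of the 38 probes whose groups did not overlap, which is 5.26%, beside 9.27% of all tested probes. Both were lower with dexamethasone, and 5.07% of all tested probes had groups apart in that direction. RPL27A measured 6.54, 6.52 and 6.52 with dexamethasone and 6.62, 6.61 and 6.58 without. The difference was -0.08 ± 0.08 (SE), at a probe near background and above it on 5 of 6 arrays. Its pooled SD of 0.019 was among the narrowest of all, with 45 of 24590 probes as narrow. The groups stayed apart with the other normalisations and background corrections. There the difference ran from -0.07 with cyclic loess to -0.19 with the authors' values. The spot means before normalisation overlapped, at 95.6, 81.3 and 82.3 with dexamethasone and 102.7, 99.8 and 91.8 without. The other RPL27A probe was at background on all 6 arrays.

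RPL11, which with RPL5 and 5S rRNA binds the p53 regulator MDM2, had a bright probe at 13.95, 13.75 and 13.79 with dexamethasone and 13.79, 14.03 and 13.99 without. The groups overlapped and the difference was -0.11 ± 0.10 (SE, n = 3 each). RPL7A was not above background in any dexamethasone stallion and above it in all 3 controls. Its control mean was 6.52 and its dexamethasone mean 6.40, a difference of -0.12 ± 0.09 (SE), with an adjusted limma p of 0.999. The groups overlapped, with control 2 at 6.46 and dexamethasone 2 at 6.47. The probe met the condition for a test through the controls alone, the group in which it was higher. The ratio was also estimated, at 1.09-fold higher in controls. This estimate took, on each dexamethasone array, the higher of the probe's own signal and the lowest signal that was above background there. With overlapping groups and signals near background, it is not a lower limit of the difference.

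Among the large subunit genes that were higher with dexamethasone, RPL14 and RPL18 had the widest differences between stallions. RPL14 was at 11.83, 12.54 and 12.23 with dexamethasone and 11.84, 12.22 and 12.19 without, a difference of 0.11 ± 0.17 (SE). It was 0.30 without dexamethasone 1, -0.06 without dexamethasone 2 and -0.01 without control 1. RPL18 was at 8.28, 8.76 and 8.90 against 8.48, 8.64 and 8.53, a difference of 0.09 ± 0.15 (SE). In both, stallion 1 of each group was the lowest, and the range within the dexamethasone group exceeded the difference. Without dexamethasone 1 the RPL18 difference was 0.28 (limma unadjusted p = 0.0206, not past the adjusted p), and without dexamethasone 3 it was -0.03.

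RPL34 also had its lowest values in stallion 1 of each group, at 10.55, 10.95 and 11.25 with dexamethasone and 10.64, 11.02 and 11.15 without. Its difference was -0.02 ± 0.18 (SE). RPL3, whose loop reaches towards the peptidyl transferase centre, had narrow groups, 7.06, 6.99 and 6.97 against 6.91, 7.01 and 6.86. They overlapped, with a difference of 0.08 ± 0.08 (SE). The other tested large subunit genes (RPL6, RPL7, RPL9, RPL10A, RPL19, RPL28, RPL32, RPL37 and RPL38) differed by -0.13 to 0.06, and the groups of each overlapped.

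**Figure D2:**
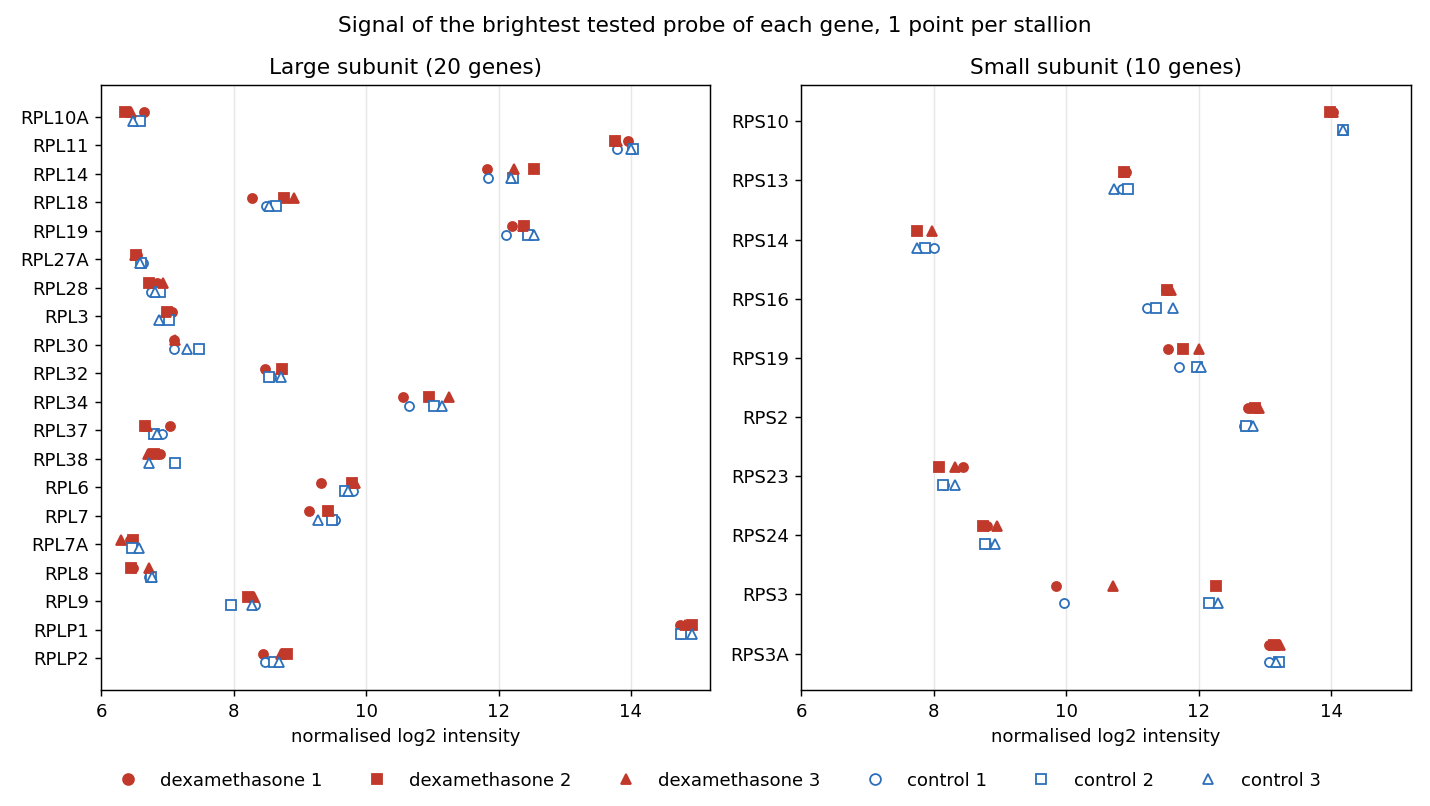
Normalised log2 intensity (horizontal axis) of the brightest tested probe of each ribosomal protein gene, with 1 point per stallion: filled red for dexamethasone and open blue for control, the shape giving the stallion. Red and blue points overlap for every gene except RPL27A and RPS10, and the points of RPS3 are spread over 2.44 log2 units.

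Of the 10 tested small subunit genes, 5 were higher with dexamethasone and 5 lower, with a median of 0.00. RPS10, a target of ubiquitin marking on stalled ribosomes and a gene of Diamond-Blackfan anaemia, measured 14.03, 13.99 and 14.03 in the dexamethasone stallions. The controls were at 14.18, 14.18 and 14.19, above every dexamethasone stallion. The difference was -0.17 ± 0.08 (SE), and limma gave an unadjusted p of 0.0527 and an adjusted p of 0.999.

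The distance between the RPS10 groups went with the normalisation and the handling of flagged spots. The spot means before normalisation were 14913, 17789 and 15805 with dexamethasone and 18970, 20393 and 17480 without, which overlap. The groups overlapped as well with median scaling (-0.19), cyclic loess (-0.04), the authors' scaled intensities (-0.12) and when spots with the quality flags C, I or P were retained (-0.05). They did not with background subtraction or a smaller normexp offset (-0.17 each), or with saturated spots taken as missing (-0.21). In the last setting dexamethasone 2 was at 14.17 and control 2 at 14.18. The pooled SD in quantile normalised values was 0.017, and 27 of 24590 probes were as narrow. The difference passed an unadjusted p of 0.05 when only probes above background on all 6 arrays were tested (limma unadjusted p = 0.0463, adjusted p = 0.998) and with the mean of each gene's probes (unadjusted p = 0.0470).

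RPS3, which lines the mRNA entrance of the small subunit, stood apart in its spread. Its brighter probe was at 9.84, 12.27 and 10.71 in dexamethasone 1 to 3 and at 9.96, 12.15 and 12.28 in control 1 to 3. In spot means before normalisation the same probe read 893, 4730 and 1573 with dexamethasone and 1204, 4812 and 4700 without. Low and high values thus occurred in both groups. The pooled SD was 1.27, and 11 of 24590 tested probes were as wide. The difference of -0.53 ± 0.67 (SE, 95% interval -2.02 to 0.96) did not exceed the spread. It was 0.02 without dexamethasone 1 and -1.28 without control 1 (limma unadjusted p = 0.0437, not past the adjusted p).

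The other RPS3 probe did not show these low values. It was at 10.71 and 10.35 in dexamethasone 1 and 2 and at 10.81, 10.47 and 10.47 in control 1 to 3, with no usable spot in dexamethasone 3. Here dexamethasone 1 and control 1, the lowest on the brighter probe, were the highest. The range over stallions was 0.46 on this probe and 2.44 on the brighter, and these 2 stallions were lowest on the brighter and highest on the other probe with each normalisation and background correction tried. The difference on this probe was -0.05 ± 0.15 (SE). Which of the probes follows the RPS3 transcript was not tested.

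RPS16, whose tail reaches the tRNA in the peptidyl site, measured 11.50, 11.51 and 11.58 with dexamethasone and 11.22, 11.35 and 11.61 without. Control 3 was above all dexamethasone stallions, and the difference was 0.14 ± 0.11 (SE). Without control 3 it was 0.25 (limma unadjusted p = 0.0287, adjusted p = 0.991), and 0.05 without control 1.

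RPS19 and RPS24, further genes of Diamond-Blackfan anaemia, and RPS14, whose loss contributes to the anaemia of the 5q- syndrome, overlapped between groups. RPS19 was at 11.54, 11.76 and 12.00 with dexamethasone and 11.70, 11.97 and 12.04 without, a difference of -0.14 ± 0.13 (SE). RPS24 differed by 0.01 ± 0.09 and RPS14 by -0.02 ± 0.12 (SE). RPS3A varied least among the small subunit genes, from 13.06 to 13.24 over the 6 stallions, and its groups differed by 0.00 ± 0.09 (SE). RPS2, RPS13 and RPS23 differed by 0.09, 0.05 and 0.07.

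The balance of the subunits was also compared. For each stallion, the median deviation of the large subunit genes from their means over the 6 stallions was set against that of the small subunit genes. Large minus small was -0.05, 0.06 and -0.05 in the dexamethasone stallions and 0.03, 0.02 and -0.03 in the controls. Both groups included values on either side of 0 and they overlapped. Under median scaling the medians of the dexamethasone difference were -0.11 for the small and -0.09 for all tested genes. Relative to all genes the small subunit stood at 0.01 in the main setting and -0.03 with median scaling, and the large subunit at -0.03 and -0.01.

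Genes with several probes show how far probes to the same gene agree. Among the 41 genes, 17 had at least 2 probes. In 8 of them 2 probes were tested, in 5 only 1 was, and in 4 none was. Signals of probes to the same gene lay 0.31 to 6.32 log2 units apart among the 8. RPL11 read 13.9 on its bright probe and 7.56 on the other, and RPL14 12.1 and 7.03. RPS3A had 1 probe at 13.1 and 2 at background on every array. The dexamethasone differences were closer to each other, 0.03 (RPL9) to 0.48 (RPS3) apart with a median of 0.10, which is also the median over the 1196 genes with 2 tested probes. The sign was the same in 5 of the 8 genes (62.5%), beside 51.2% over those 1196 genes. It differed in RPL11, RPL14 and RPS23, where RPS23 was at 0.07 ± 0.11 on the brighter and -0.11 ± 0.11 (SE) on the dimmer probe. RPL7, RPL9, RPL28 and RPS19 had the same sign on both probes and lay 0.03 to 0.09 apart.

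**Figure D3:**
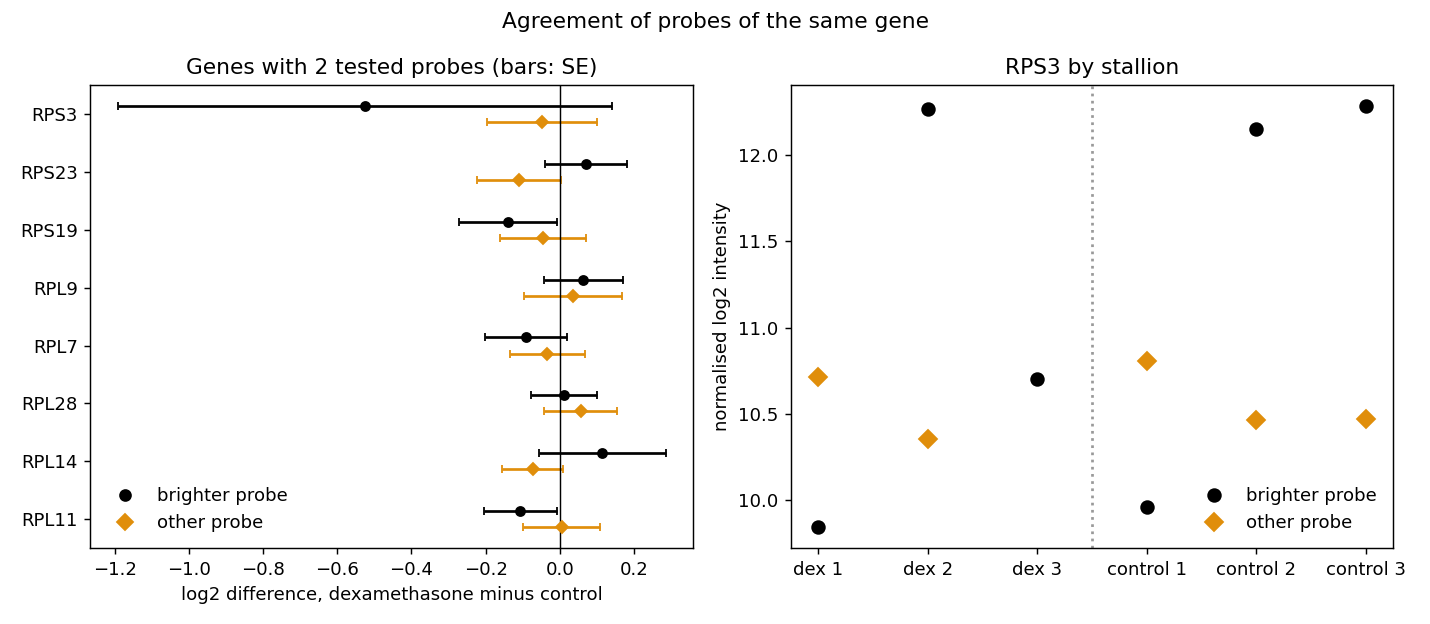
Left, log2 difference (dexamethasone minus control, bars are SE) of both probes of each of the 8 genes with 2 tested probes. Right, normalised log2 intensity of both RPS3 probes in each stallion, the dimmer one without a value in dexamethasone 3; the brighter probe is below 10 in dexamethasone 1 and control 1, where the other probe is highest.

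The spread between stallions of the same group was described by the pooled SD of each probe. Its median was 0.143 for the 38 member probes and 0.117 for all tested probes. Among probes with a mean of 10 or more it was 0.144 (13 members) against 0.128, and under 8 it was 0.114 (15 members) against 0.113. RPS3, RPL14 and RPL34 had the widest ranges over the 6 stallions, 2.44, 0.71 and 0.70. RPL27A, RPS3A and RPLP1 had the narrowest, 0.11, 0.18 and 0.18, the last with its saturated spots.

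Differences between individual stallions were larger than the difference between the groups. The ribosomal protein genes had a median deviation from their own means of -0.07 in dexamethasone 1, 0.01 in dexamethasone 2 and 0.08 in dexamethasone 3. In the controls it was -0.07, 0.05 and 0.06. Over all tested genes the same median stayed between -0.01 and 0.01 on every array. Quantile normalisation holds it near 0 by giving all arrays the same distribution. With median scaling it ran from -0.10 in dexamethasone 2 to 0.09 in control 1. In the main setting each group had 1 stallion with low ribosomal protein values, and 10 of 29 of these genes were above their mean in each.

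Of the 27 genes with values on all 6 arrays, dexamethasone 1 was lowest in 11, dexamethasone 2 in 8, control 1 in 3 and each of the others in 1 or 2. Dexamethasone 1 and control 1 were each among the lowest 2 in 15 genes and dexamethasone 2 in 10. By pairs, 9 of the 27 (33.3%) had their lowest 2 values in dexamethasone 1 and control 1, against 9.65% of all 9657 tested genes with complete values. These were RPL14, RPL18, RPL19, RPL34, RPLP1, RPLP2, RPS3, RPS3A and RPS19, each read at its brightest probe. RPL14, RPS3 and RPS19 had another tested probe, and none of those had this pair lowest. The other RPL14 probe was lowest in dexamethasone 3 (6.93) and dexamethasone 2 (6.98). The other RPS19 probe was lowest in control 3 (9.51) and dexamethasone 2 (9.65), and the other RPS3 probe was highest in this pair. RPLP1 was counted by a near tie, at 14.7499 in control 1 and 14.75 in control 2, and its control 1 spot was marked as saturated. The other 14 pairs of stallions held the lowest values of 0 to 3 members each in this normalisation. The pair was singled out after its values were seen, the 9 genes share the same arrays, and no test was made of it. Dexamethasone 1 and control 1 were also the arrays with the most gene probes above background, 46.3% and 47.8%, and with the highest median spot means, 75.7 and 79.4 beside 72.6 to 74.6 on the others. Both lay in the run of 4 consecutive numbers that were read as slide numbers, with dexamethasone 2 and control 2. The part of array brightness in this pattern was not tested.

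Scaling changed the sign of the deviation of control 1, but the ribosomal protein genes of that stallion stayed below all tested genes. With median scaling the ribosomal protein median was -0.15 in dexamethasone 1 and 0.04 in control 1, where all genes were higher too. Relative to all tested genes it was -0.13 and -0.05, and with the authors' values -0.15 and -0.12. For the 12 genes with a mean of 10 or more, the deviation relative to all genes that bright was -0.08 in dexamethasone 1 and -0.09 in control 1, and 0.02 to 0.09 in the other 4. It was -0.15 and -0.22 with median scaling. The dimmer genes did not have this pair lowest: for the members under 10 the median deviation was -0.03 in dexamethasone 1, -0.04 in dexamethasone 2, 0.01 in control 1 and 0.02 to 0.08 in the others. The count of genes with their lowest values in this pair was 6 with median scaling (all genes 3.79%), 9 with cyclic loess (10.1%) and 13 with the authors' values (11.2%). With median scaling dexamethasone 1 and 2 held the lowest values of 5 members (18.5%), as they did for 18.5% of all genes.

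**Figure D4:**
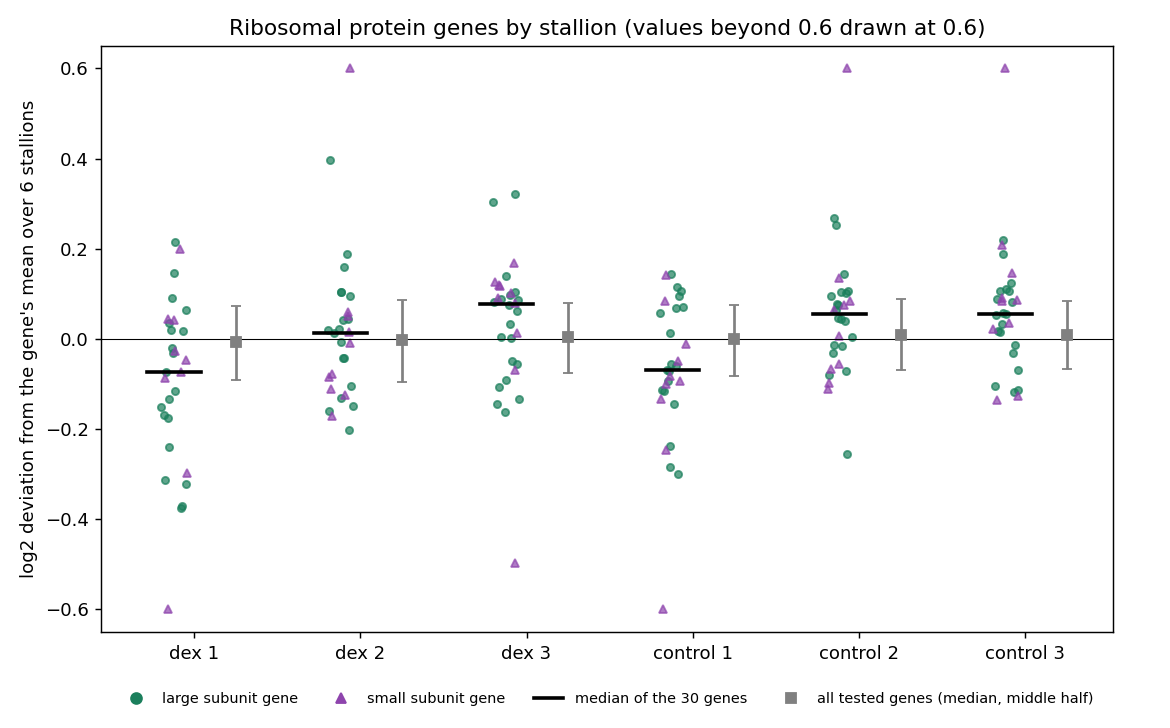
Deviation of each tested ribosomal protein gene from its own mean over the 6 stallions (vertical axis, log2), with 1 symbol per gene; black lines are the medians of these genes and grey squares with bars the median and quartiles of all tested genes. The black lines are at -0.07 in dexamethasone 1 and control 1 and between 0.01 and 0.08 in the other 4 stallions; 5 values beyond 0.6, all RPS3, are drawn at 0.6.

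Other genes of the translation machinery were read from lists, and 0 of any list passed limma's adjusted p. The ribosomal proteins outside the 53 had 9 tested genes, 4 higher and 5 lower with a median of -0.06. Of these 1 passed the unadjusted p, RPL29, at -0.29 ± 0.11 (SE). Its probe was near background, above it in 1 dexamethasone and 3 control stallions. The controls, the group in which it was higher, thus met the condition for a test alone. Of 2 tested paralogues, which can replace a ribosomal protein in some tissues, RPL22L1 was at 0.29 ± 0.12 (SE) and also passed the unadjusted p. The initiation factors, which bring the small subunit to the mRNA, had 33 tested genes, 11 higher and 22 lower with a median of -0.04, and 2 past the unadjusted p, both higher. The elongation and termination factors had 10, 4 higher and 6 lower, with 2 past it.

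Genes of ribosome assembly, which process and fold the ribosomal RNA in the nucleolus, had 34 tested, 17 in each direction with a median of -0.01. The nucleolar protein NCL was at -0.32 ± 0.10 (SE, limma unadjusted p = 0.00872, adjusted p = 0.999), the only one of them past the unadjusted p. Subunits and factors of RNA polymerases I and III, which transcribe ribosomal and transfer RNA, had 20 tested, 10 in each direction and 0 past it. The regulators of ribosomal protein mRNA translation had 10 tested with 2 past it, and the ribosome-associated proteins 5 with 0. The mitochondrial ribosomal proteins, which serve the separate ribosome of that organelle, had 38 tested, 17 higher and 21 lower with a median of -0.02 and 4 past it. In each list the share is to be read beside 3.87% of all tested genes past the unadjusted p. Among markers of testis cells 0 passed the adjusted p. The medians were 0.00 for 7 Leydig genes (1 past the unadjusted p, INSL3 at -1.21 ± 0.23, SE), -0.05 for 9 Sertoli genes (1 past it, CLDN11 at 0.48 ± 0.13, SE) and 0.05 for 7 spermatogonial genes (0 past it). They were -0.04 for 9 spermatocyte genes (1 past it) and 0.01 for 10 spermatid genes (2 past it). The 3 peritubular myoid genes were all lower, with a median of -0.20 and 1 past it, and the 5 endothelial genes were all lower, with a median of -0.08 and 0 past it. The 6 lymphocyte genes had a median of -0.02 with 0 past it, and the macrophage and erythrocyte lists had 1 tested gene each, at 0.10 and 0.13. The part of cell composition in the ribosomal protein values was not tested.

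By stallion, the initiation factors had the same sign as the ribosomal proteins in the main setting. Their medians were -0.06 in dexamethasone 1, -0.04 in control 1 and 0.03 to 0.04 in the other 4. With median scaling they were -0.06 in dexamethasone 1, -0.05 in dexamethasone 2 and 0.07 in control 1. Relative to all tested genes those were -0.04, 0.04 and -0.02. The ribosome assembly genes (main setting) were at -0.01, 0.01 and -0.02 in the dexamethasone stallions and -0.04, -0.03 and 0.08 in the controls. The mitochondrial ribosomal proteins were at -0.02 and 0.00 in dexamethasone 1 and control 1 and at -0.01 to 0.04 in the others. The 9 other cytosolic ribosomal proteins were at -0.03 in both and lowest in dexamethasone 3, at -0.12.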

How the data were processed

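Total RNA of 1 testis sample per stallion was read as Alexa-647 labelled cRNA on single-colour CodeLink human arrays, per the labels' protocols. The scanner software is not given in the sources used here, and neither is what its flags mean. The deposited files give spot and background intensity on a linear scale, a scaled intensity that the authors obtained (from the values) by dividing background-subtracted intensity by 1 constant per array, and a signal strength score. The score was not used in any test. Flag M marks spots without a value, L was read as at background and S as saturated (kept), and spots flagged C, I or P were taken as missing. Probe names printed more than once were removed as controls. Runs of slides were inferred from consecutive numbers in the names of the deposited scans, read as slide numbers, and not taken from the labels.

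Intensities were corrected with normexp (offset 50), log2 transformed and quantile normalised (limma 3.58.1, R 4.3.3). The offset compresses differences near background. Dexamethasone was tested against control with lmFit and eBayes, two-sided and without covariates, adjusted by Benjamini-Hochberg over all 24590 tested probes. Figures were drawn with matplotlib in Python. The test was run on simulated data with independent noise for each value. That simulation had no differences shared by an array or a slide run, so it cannot vouch for the test where these occur. A gene was read at its brightest tested probe. The members, gene lists and tests were chosen with earlier results of these data known. Genes were named by fixed rules: per subunit the 5 higher and 5 lower with the smallest p, members with well known roles, and those with the widest or narrowest spread over stallions or disagreement between probes. RPL29, RPL22L1, NCL, INSL3, CLDN11, the untested members and the remaining members are named beyond these rules, after their values were seen.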

Additional observations from a re-analysis of the deposited data

How the results depend on the processing

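The main results were recomputed under 20 alternatives: other normalisations, background corrections, filters and variance models, the authors' values, flagged or saturated spots handled otherwise, the mean of a gene's probes, the slide run as a block and within each run, and without each stallion. The mean of a gene's probes was tested by gene and not by probe, and the values within each run had no test. In all the other alternatives the number of ribosomal protein probes past the adjusted p was 0. Past the unadjusted p it was 1 with background subtraction, with normexp offset 16 and with the authors' values (RPL8 each). In these settings 818, 817 and 838 of all tested probes passed it, beside 808 (3.29%) in the main one. The number of ribosomal protein probes past it was 1 without the filter on background (RPS9, all probes 2073). It was 1 among probes above background on all 6 arrays (RPS10, all probes 586). Without each stallion in turn it was 0 to 2 (all probes 580 to 1054). The RPS9 probe past it was lower with dexamethasone and above background on 1 array. The other RPS9 probe was at background on all 6 and higher with dexamethasone. With median scaling the median difference was -0.0977 for all ribosomal protein genes and -0.113 for the small subunit, where all tested genes stood at -0.0858. Without each stallion the median ranged from -0.04 to 0.02 for all members, from -0.05 to 0.03 for the large subunit and from -0.05 to 0.05 for the small. Over all tested probes 1 passed the adjusted p in the main setting, 0 with background subtraction, 0 among probes above background on all 6 arrays, 0 with eBayes trend and robust settings, and 0 to 1 without each stallion. For the named genes 51 of 468 values changed sign, none of them past the adjusted p (smallest 0.659). Within the second run of slides (1 stallion against 1) RPS3 differed by -1.58, and within the first by 0.00. No paired analysis was possible because the labels give each stallion its own number and nothing that pairs them. Signal over background limits the dim members: for the 15 tested probes with a mean under 8 the offset and the background correction set the size of a difference.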
